A study of Mus musculus with 2 samples.

Results

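The cells described here are Saa3-high macrophages of mouse pancreatic tumours, 1888 barcodes of a takinib library and 37 of a vehicle library, 1925 in all among 36662 kept barcodes. They were chosen by measured values. A barcode is the tag that marks the RNA of 1 droplet, and a UMI (unique molecular identifier) marks 1 captured transcript. A barcode entered with at least 1000 UMIs and 500 genes, and with mitochondrial transcripts making up no more than 20% of its UMIs. A member then had Saa3 at 1% of its UMIs or more, at least 3 UMIs of F13a1, Pf4 and Arg1 together and at least 1 UMI of Csf1r or Cd68. Its Ear2 and Car4 UMIs came to at most 1, the class II genes H2-Aa, H2-Ab1, H2-Eb1 and Cd74 to under 1.5% of UMIs and S100a8 with S100a9 to under 3%. Members had no UMI of Cd79a, Cd3e or Epcam. High Saa3, Arg1, F13a1 and Pf4 in these cells is therefore what selected them, and all values of these genes are descriptions.

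The tumours came from KPPC mice, a strain that develops pancreatic ductal cancer from engineered alleles which the labels do not spell out. Mice aged 6 weeks were given vehicle, or takinib at 50 mg/kg, over 14 days. Takinib inhibits TAK1, a kinase (encoded by Map3k7) through which receptors for bacterial products, interleukin-1 and tumour necrosis factor reach NF-kB and AP-1. Both groups carried the KPPC genotype and were 1 library each, made from whole tumours digested with collagenase and DNase, and the number of mice behind a library is not given in the labels. With 1 sample per group there was no test, and no difference below has a replicate check.

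Serum amyloid A proteins are acute phase proteins that carry lipid and are made in bulk during inflammation. Saa1 and Saa2 are known mainly as liver products, while Saa3 is made in mice by macrophages, fat cells and epithelia after bacterial products or cytokines. Arginase 1 (Arg1) splits arginine into ornithine and urea and is a textbook gene of alternatively activated macrophages, while the inducible nitric oxide synthase (Nos2) uses the same arginine to make nitric oxide. F13a1 encodes the A subunit of coagulation factor XIII, which cross-links fibrin, Pf4 a chemokine stored in platelets and also made by macrophages, and Slc7a2 a carrier that brings arginine into the cell. Macrophages rich in Gpnmb, Spp1 and Fabp5, often called lipid-associated, take up and degrade lipid, and were the gate against which the members are described below.

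Saa3 (ENSMUSG00000040026) lies on the minus strand of chromosome 7 from 46711998 to 46715700 (GRCm38, GENCODE M21), the assembly that the submitters' processing notes name as mm10. Its neighbours on the same chromosome are Saa1, from 46740497 to 46742980 on the minus strand, and Saa2, from 46751790 to 46754313 on the plus strand. The promoter is shown because its gene defines the cells and because genes of the NF-kB family, which binds such promoters, are given below. The sequence is RefSeq's on GRCm38.p6, chr7:46715627-46715926, minus strand, 250 bases before to 50 after the gene's start, and capitals mark letters that match a searched motif.
Saa3: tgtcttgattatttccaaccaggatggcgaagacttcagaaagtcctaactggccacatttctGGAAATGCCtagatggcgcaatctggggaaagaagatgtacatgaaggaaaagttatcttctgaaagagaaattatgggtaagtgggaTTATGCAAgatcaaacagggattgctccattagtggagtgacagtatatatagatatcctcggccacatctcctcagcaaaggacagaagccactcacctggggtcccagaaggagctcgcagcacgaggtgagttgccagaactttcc
On the reverse strand a match to the NF-kB letters GGNNTTTCC began at position -187 from the gene's start, and a match to the C/EBP letters TTGCNNAA began at -99. No match to the AP-1 letters TGANTCA lay in this window. Both strands were searched, and the 2 matches do not overlap. Of 32851 promoters of that length, 5.82% held the NF-kB letters, 10.8% the C/EBP letters and 7.81% the AP-1 letters. A match is a run of letters and not a measured binding site.

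Members made up 7.05% [6.74, 7.36] of the 26790 kept takinib barcodes and 0.375% [0.264, 0.516] of the 9872 kept vehicle barcodes. Square brackets hold 95% intervals (exact Clopper-Pearson for shares, exact Poisson for levels and ratios), which cover counting error only. Of barcodes with a Csf1r or Cd68 UMI they were 13.4% of 14043 in takinib and 0.699% of 5291 in vehicle. The share depended on the limits: with Saa3 at 2% or more it was 5.82% and 0.122%, and with 2000 UMIs and 1000 genes it was 12.2% and 0.331%. Takinib members had a median of 5928 UMIs and 1896 genes, vehicle members 2866 UMIs and 1222 genes, and the libraries had medians of 3049.5 and 3594.5 UMIs with 1.84% and 8.68% mitochondrial UMIs. The file headers name different Cell Ranger versions, and the fewest UMIs of any deposited barcode were 0 in vehicle and 500 in takinib. Xist, the RNA of the inactive X chromosome, was found in 1536 of 1888 takinib members and in 0 of 37 vehicle members, of which 6 held Y-linked UMIs. Drug, library, software, depth and animals cannot be told apart. The libraries shared 400 kept barcode sequences, among them those of 29 takinib and 2 vehicle members.

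Saa3 stood at 74379 CPM in the takinib members, where CPM is the count of a gene summed over a gate per 1000000 UMIs of that gate. Per barcode it ranged from 1.00% to 33.6% of UMIs with a median of 5.26% in takinib; 330 members lay under 2% and 476 at 10% or more. Vehicle members ranged from 1.03% to 7.71% with a median of 1.59%, and 25 of the 37 lay under 2%. Near the limit, 41 takinib barcodes lay between 1% and 1.1% and 54 that met every other condition lay between 0.9% and 1%. In vehicle these were 6 and 3. The gate is thus a range along a value that continues below it.

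**Figure D1:**
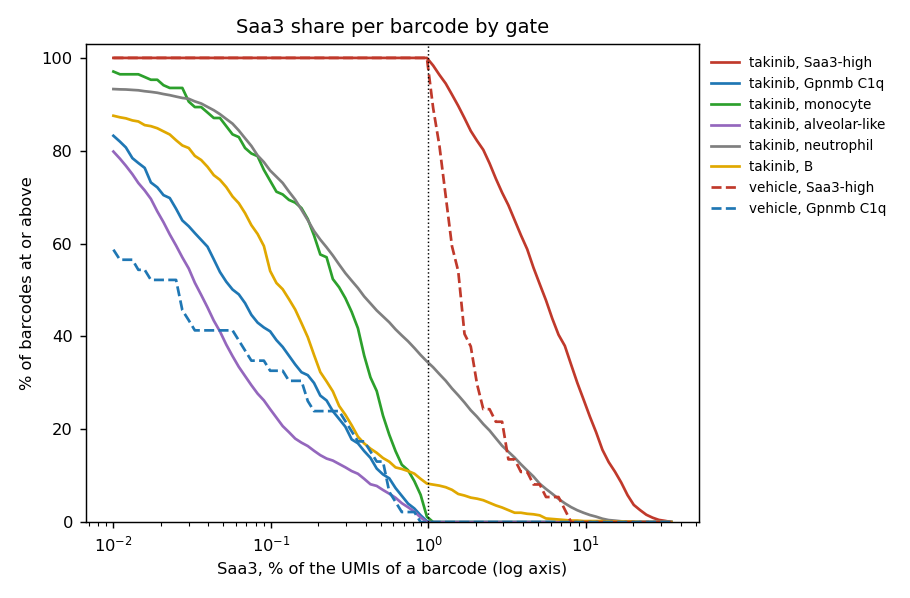
Percent of barcodes (vertical axis) whose Saa3 share of UMIs is at least the value on the horizontal log axis, by gate; solid lines are takinib and dashed lines vehicle, and the dotted line is the limit of 1% that defined the members. Takinib members spread from 1.00% to 33.6%, vehicle members stop at 7.71%, and 34.4% of takinib neutrophils lie at 1% or above.

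Saa3 was not restricted to the gate. In takinib 8746 barcodes, 32.6%, had Saa3 at 1% or more, and 6858 of them were outside the gate, most often with S100a8 and S100a9 at 3% or over (4848) or with under 3 UMIs of F13a1, Pf4 and Arg1 (5423). The takinib neutrophil gate held 13250.5 CPM. Cells that should lack Saa3 carried it too: 88.6% of 891 takinib B cells (median depth 2020 UMIs) had a Saa3 UMI, 8.31% had 1% or more, and their level was 3748 CPM against 50.0 CPM in vehicle B cells. Gpnmb C1q macrophages of the same library had 1602 CPM and alveolar-like macrophages 1204 CPM. The high level of the members is fixed by the rule, and 1% in a single barcode was also reached by some B cells. How many members reached the limit through free RNA was not tested.

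Of the marker genes, the rule required at least 3 UMIs of Arg1, F13a1 and Pf4 together and none of them singly. Their shares follow in part from it. A UMI of Arg1 was found in 96.5% of takinib members [95.6, 97.3], of F13a1 in 90.9% [89.5, 92.2], of Slc7a2, which the rule did not use, in 66.7% [64.6, 68.9], and of Pf4 in 51.9% [49.6, 54.1]. Thinned to 1000 UMIs a cell, the shares were 86.5%, 61.7%, 29.9% and 29.8%, against 9.43%, 3.03%, 2.36% and 5.27% in thinned takinib B cells. In takinib alveolar-like cells Arg1 was found in 90.4% and Slc7a2 in 74.1% (67.0% and 26.2% thinned). F13a1 and Pf4 were found there in 21.6% and 29.8% (7.57% and 9.25% thinned). All of Arg1, F13a1 and Pf4 were found together in 46.3% of members. Arg1 was spread widely, since the 411 members richest in it (21.8%) held 50% of its UMIs. Pf4 was not: 84 members (4.45%) held 50% of its UMIs, and its median was 1 UMI a cell with a highest value of 290. Of the macrophage marker list, 10 genes outside the rule were measured with 50 counts or more, and none of the list's genes was at 0. Per cell the median of C1qa, C1qb and C1qc together was 2 UMIs, and the medians of Gpnmb, Mrc1, Ly6c2 and Ccr2 were 0. The name describes the rule, and the members held cells with genes of several other classes, as given further below.

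Against Gpnmb C1q macrophages of the same takinib library, the members had higher levels of Saa1, Hp, Lcn2, Ptges, Nos2 and Fpr1 and lower levels of Ctsk, Spp1, Fabp5 and Apoe. Past the fold set below, 5 of 8 acute phase and 7 of 13 macrophage inflammatory genes were higher and 15 of 19 lipid-associated genes lower. The last list holds genes that accompany Gpnmb, on which the reference gate was cut. The reference gate comprised 477 barcodes (median 7297 UMIs) with at least 2 Gpnmb UMIs, at least 10 C1q UMIs, Saa3 under 1% and the other limits of the rule. Ratios are log2 of CPM + 10 in members over CPM + 10 in the reference, and a gene was past the fold at over 1 or under -1 with 50 summed counts or more in either gate. Of 9269 genes so counted, 166 were higher (1.79%) and 169 lower (1.82%), with a median log2 ratio of -0.11. With ratios scaled to a median of 0 the counts were 210 and 132. Both gates were cut from the same values, and these contrasts are descriptions.

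Among the 15 genes with the highest ratios, secreted acute phase and antimicrobial products stood out by level. Haptoglobin (Hp), which binds free haemoglobin, had 3585 CPM in members and 299 CPM in Gpnmb C1q cells, a log2 ratio of 3.54 [3.46, 3.62]. Lipocalin 2 (Lcn2), which withholds iron from bacteria, had 3476 and 589 CPM (2.54 [2.48, 2.60]). The protease inhibitor Slpi had 2142 and 329.7 CPM (2.66 [2.58, 2.74]), and the related Wfdc21 2215 and 454 CPM (2.26 [2.20, 2.33]). Saa1 was at 231 and 3.42 CPM (4.16 [3.46, 5.01]), and it was found in 495 of 1888 members and 10 of 477 Gpnmb C1q cells. Neutrophils make several of these products, and they held 11835 CPM of Lcn2 and 4005 CPM of Slpi and 3630.2 CPM of Wfdc21, above the members, but 1738 CPM of Hp and 166 CPM of Saa1, below them. Takinib B cells, which should lack these transcripts, held 2872 CPM of Lcn2 and 3135 CPM of Slpi, close to or above the members, and 874 CPM of Wfdc21, 453 CPM of Hp and 31.3 CPM of Saa1. The B cell gate had no limit on S100a8 and S100a9 and held 32160 CPM of them, against 5792 in members. Per B cell their median was 6 UMIs and the highest value 3954, so few barcodes can carry these sums. The part of free or neutrophil RNA in the members' levels was not tested.

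Genes of enzymes and surface proteins were among the 15 as well. Ptges, the enzyme that completes prostaglandin E2, had 278 CPM in members against 22.7 (3.14 [2.85, 3.44]), and neutrophils and B cells held only 21.4 and 12.4 CPM. Nos2 had 355 against 38.4 CPM (2.91 [2.69, 3.15]). Neutrophils held as much Nos2, 353 CPM, and B cells 70.3 CPM. Il1r1, the signalling receptor of interleukin-1, had 53.2 against 4.16 CPM (2.16 [1.60, 2.85]), and the gap junction gene Gja1 89.6 against 4.16 CPM (2.81 [2.21, 3.54]). Ly6c2, a monocyte antigen, had 274 against 23.7 CPM (3.07 [2.79, 3.37]). Neutrophils held 351 CPM of it, and the monocyte gate, which was cut on Ly6c2, 1183 CPM. U90926, Timp1, Ctla2b and Cxcl13 were also among the 15, with log2 ratios of 5.31, 2.43, 2.35 and 2.31. Among members with 10 or more C1q UMIs their ratios were 2.15, 1.52, 2.57 and 3.55.

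Some of these levels came from few cells. U90926, a transcript of macrophages whose function is not settled, was found in 177 members (9.38%), and 19 of them held 50% of its 6302 UMIs. The B cell chemoattractant Cxcl13 was found in 127 members, and 9 of them held 50% of its 4211 UMIs. Timp1, a metalloprotease inhibitor, had 50% of its UMIs in 33 members. By contrast, 50% of the Hp UMIs lay in 230 members, of Lcn2 in 220, of Ptges in 173 and of Nos2 in 155. All 15 genes kept a ratio above 0 in each of the 17 alternative settings that were run.

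**Figure D2:**
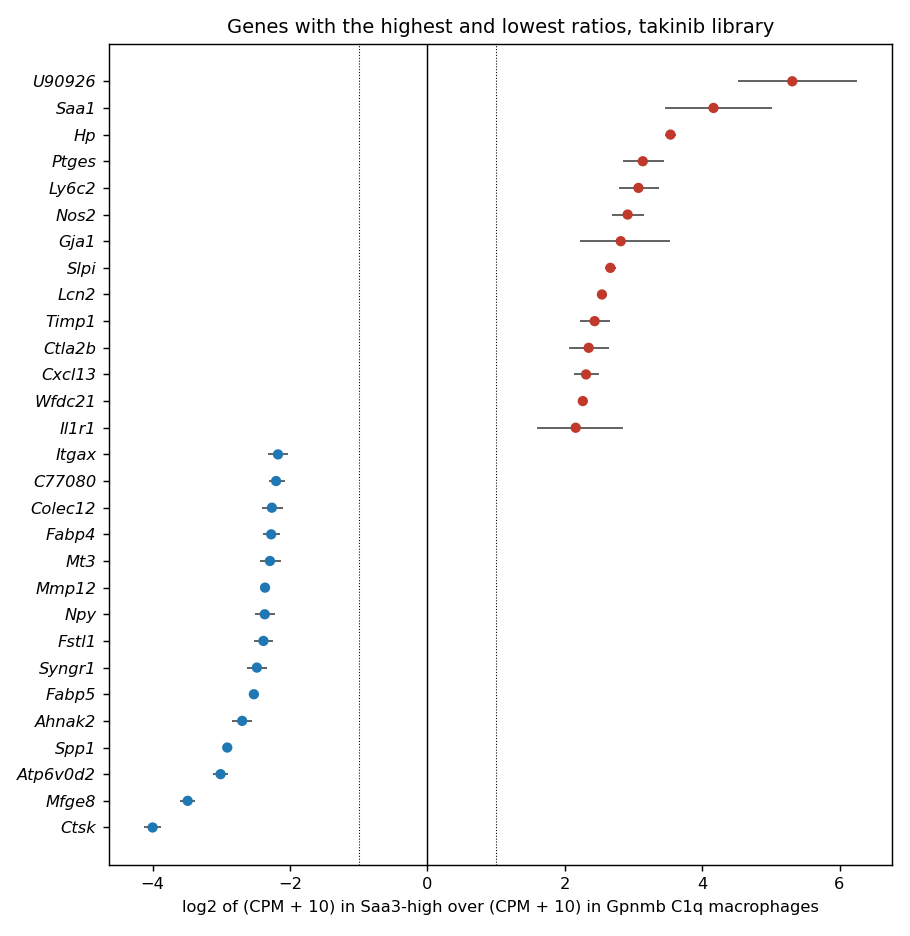
Log2 ratio of CPM + 10 in Saa3-high over Gpnmb C1q macrophages of the takinib library for genes among the 15 highest (red) and the 15 lowest (blue) by the naming rule; horizontal bars are exact 95% counting intervals and dotted lines mark the limits of 1 and -1. The lowest ratio is that of Ctsk and the highest, 5.31, that of U90926, and every interval drawn lies past its dotted line.

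Among the 15 genes with the lowest ratios, the collagen-degrading cathepsin Ctsk had 29.8 CPM in members and 627 CPM in Gpnmb C1q cells (log2 interval [-4.12, -3.88]). Mfge8, which bridges dying cells to phagocytes, had 41.6 and 569 CPM (-3.49 [-3.60, -3.38]), and the proton pump subunit Atp6v0d2 51.3 and 484 CPM (-3.01 [-3.12, -2.90]). Osteopontin (Spp1) had 1330.1 and 10084 CPM (-2.91 [-2.94, -2.89]). The fatty acid binding proteins Fabp5 and Fabp4 had log2 ratios of -2.53 and -2.27, and the macrophage elastase Mmp12 -2.36. The others were Ahnak2, Syngr1, Fstl1, Npy, Mt3, Colec12, C77080 and Itgax, between -2.70 and -2.17. Since Gpnmb defined the reference gate, genes that accompany it were bound to be high there.

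Of the acute phase list, 8 of 9 genes outside the rule had enough counts, 5 were higher past the fold and 0 lower, and the median log2 ratio was 1.33. Saa1, Hp, Lcn2, Saa2 and the copper ferroxidase Cp made up the 5. Saa2 had 207 counts in members and 0 in the reference gate, where 3 counts is the limit that a count of 0 allows. Lrg1 (0.33), the interleukin-1 receptor antagonist Il1rn (0.40) and Orm1 (0.54) were not past the fold. All lists were written with earlier results of these data known.

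In the macrophage inflammatory list 7 of 13 measured genes were higher past the fold and 0 lower, with a median of 1.06. Ptges and Nos2 led it, followed by Il6 (56.1 against 11.7 CPM, 1.60 [1.25, 2.00]), the prostaglandin synthase Ptgs2 (209 against 70.9 CPM, 1.44 [1.27, 1.61]), Il1b (1862 against 740.3 CPM, 1.32 [1.26, 1.37]), the itaconate enzyme Acod1 (1.12) and Il1a (1.06). Tnf was at 52.9 against 44.0 CPM (0.22 [0.02, 0.43]), and Il12b had 5 counts in all members. Among members with 10 or more C1q UMIs, a choice made after the data were seen, 2 of 12 were past the fold and the median was 0.55. In neutrophils Il1b stood at 5852 CPM, Acod1 at 1123, Ptgs2 at 537 and Il1a at 373, all above the members, and Il6 at 3.79 CPM, below them. B cells held 1482 CPM of Il1b, 296 of Acod1, 157 of Ptgs2, 102 of Il1a and 1.30 of Il6.

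For NF-kB feedback genes and targets the count was 5 of 20 higher, 0 lower, and the median 0.69. Sod2, the mitochondrial superoxide dismutase, led with 1269 against 284 CPM (2.12 [2.03, 2.21]). The inhibitors Tnfaip3, Tnip1 and Tnip3 and the adaptor Traf1 followed with 1.33, 1.16, 1.15 and 1.21. Nfkbia, which holds NF-kB in the cytoplasm, had 1087 against 554 CPM (0.96 [0.90, 1.02]). Of the TAK1 complex list, 0 of 4 were past the fold: Map3k7 was at 25.2 and 26.2 CPM, Tab2 at 101 and 88.0 CPM, and Tab1 and Tab3 were below 10 CPM in both gates. Among immediate-early genes 1 of 20 was past the fold, with a median of 0.32. For the NF-kB list among members with 10 or more C1q UMIs, 1 of 20 was past the fold, Sod2 (1.71), with a median of 0.59. Against monocytes 2 of its 20 genes were higher and 0 lower (median 0.18), and against alveolar-like cells 5 and 1 (median 0.70). Neutrophils held more Tnfaip3 (459 against 279 CPM), Traf1 (202 against 80.8), Tnip1 (199 against 114) and Nfkbia (2410 CPM) than members. They held less Sod2 (663 CPM) and Tnip3 (6.02 CPM).

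Both arginine routes were present in the members. Beside Arg1 (4457 against 2218 CPM, used by the rule), 4 of 17 genes of arginine and polyamine metabolism were higher past the fold and 0 lower, with a median of -0.14. These were Nos2, the citrulline recycling enzyme Ass1 (191 against 48.4 CPM, 1.79 [1.59, 1.99]), the carrier Slc7a2 (524 against 152 CPM, 1.72 [1.61, 1.84]) and the mitochondrial arginase Arg2 (1.19). Ornithine decarboxylase Odc1 (-0.28), Srm (-0.49) and Sms (-0.42), which build polyamines, were slightly lower and not past the fold. A UMI of Arg1 and one of Nos2 were found in the same barcode in 918 of 1888 members, 48.6% [46.3, 50.9], against 10.3% of Gpnmb C1q, 8.67% of alveolar-like and 7.65% of monocyte barcodes. Thinned to 1000 UMIs a cell, both were found in 378 members, a share with an interval of [18.2, 21.9] percent, and in 1.68%, 1.97% and 2.94% of the other gates. The count of 378 compares with 357 if each gene were spread over members without regard to the other. For reference, thinned takinib B cells held an Arg1 UMI in 9.43% and a Nos2 UMI in 5.84%.

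Coagulation and fibrinolysis genes beyond the rule differed one by one. Of 15 measured genes 2 were higher past the fold and 1 lower, with a median of 0.16. Serpinb2, an inhibitor of plasminogen activators, was among the higher ones (36.1 against 1.71 CPM, 1.98 [1.23, 3.10]), and the activator Plau was lower (7.03 against 27.4 CPM, -1.13 [-1.29, -0.95]). Thrombospondin 1 (Thbs1) was at 1153 against 748 CPM, factor X (F10) at 304 against 194 CPM and factor VII (F7) at 138 against 282 CPM. Of 9 platelet markers outside the rule, 1 had 50 counts or more, Ppbp at 6.64 CPM, and 2 were at 0 in members.

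Of 25 glycolysis and hypoxia genes 7 were higher past the fold and 0 lower. The other 18 had ratios above 0 but did not pass it, and the median was 0.83 against -0.11 over all genes counted. Egln3, an oxygen sensor, had 130.3 against 39.4 CPM (1.51 [1.29, 1.73]), the mitophagy gene Bnip3 354 against 119 (1.49 [1.36, 1.63]), the lactate exporter Slc16a3 214 against 72.1 (1.44 [1.28, 1.62]) and phosphoglycerate kinase Pgk1 671 against 259 (1.34 [1.25, 1.43]). The glucose carrier Slc2a1 (1.07), Mif (1.32) and Ero1l (1.38) were the other genes past the fold. Gapdh, not past it, was at 4635 against 2812 CPM, and Hif1a at 534 against 264. Of the 25 genes, 15 had higher CPM in members than in neutrophils. Among members with 10 or more C1q UMIs, 23 of 24 genes were above 0, 3 were past the fold and the median was 0.56.

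Chemokine ligands went both ways, with 5 of 18 higher, 2 lower and a median of 0.33. The neutrophil attractant Cxcl3 had 1742 against 419 CPM (2.03) and Cxcl2 5509.6 against 2627 (1.07 [1.04, 1.09]), while neutrophils themselves held 24869 CPM of Cxcl2. Ccl5 (1.97), Ccl4 (1.12) and Cxcl13 were the other higher ones. Ccl6 was lower, 1798 against 7846 CPM (-2.12 [-2.14, -2.09]), and so was Ccl12 (-1.01). The monocyte attractants Ccl2 (-0.35) and Ccl7 (-0.45) were not past the fold.

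Receptors for bacterial and danger signals showed a split. The formyl peptide receptors Fpr1 (288 against 61.6 CPM, 2.06 [1.88, 2.24]) and Fpr2 (2.11), the scavenger receptor Marco (2.08), the lectin Clec4e (1.19) and the lipopolysaccharide co-receptor Cd14 (1.13) were the 5 of 19 higher. The lectins Colec12 (-2.26) and Mrc1 (235 against 835 CPM, -1.79 [-1.86, -1.72]) and the lipid receptors Cd36 (-1.98) and Trem2 (188 against 577 CPM, -1.57 [-1.64, -1.49]) were the 4 lower. Of complement genes outside both gates' rules, factor B (Cfb, 214 against 41.1 CPM, 2.13 [1.92, 2.36]) and C3 (420.4 against 108 CPM, 1.87 [1.73, 2.01]) were higher and Itgax lower, 3 of 13.

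Lipid-associated genes were the lowest list: 15 of 19 were lower past the fold, 0 higher, and the median was -1.48. Apoe, the most abundant, had 5742 against 15866 CPM (-1.46 [-1.48, -1.45]), the cathepsins Ctsd and Ctsb -1.50 and -1.48, lipoprotein lipase (Lpl) -1.73 and Lgals3 -1.45. The cholesterol exporter Abca1 was at 463 against 268 CPM (0.77), 1 of 2 above 0. Gpnmb, which cut the reference gate, is on this list, and genes that accompany it were bound to be high there. Against monocytes 4 of 19 lipid-associated genes were higher and 0 lower, with a median of 0.55. Against alveolar-like cells 2 were higher and 7 lower, with a median of -0.51. Against the reference gate matrix genes had 7 of 19 higher and 7 lower. Of the higher ones, Sparc and Timp3 rested on single cells, as 4 members held 50% of the Sparc UMIs and 2 held 50% of those of Timp3; without sub-clusters 3, 7 and 8, described below, 5 of 19 were higher, 6 lower, and the median turned from 0.66 to -0.50.

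The remaining lists gave few genes past the fold. None of 12 interferon response genes was (median -0.07), 0 of 13 proliferation genes (median -0.41; without sub-clusters 3, 7 and 8, 3 of 8 lower and a median of -0.84), 0 of 8 genes of the integrated stress response and 1 of 23 macrophage transcription factors, lower. Of 16 alternative and resident macrophage genes 0 were higher and 2 lower, with a median of -0.43. Among members with 10 or more C1q UMIs that median turned to 0.08, with 1 of 14 higher and 1 lower. Iron and heme genes numbered 2 of 14 higher and NRF2 genes 3 of 17 higher. Among members with 10 or more C1q UMIs these were 3 of 13 and 0 of 17. The 2 measured class II genes outside the rule were both lower, but 0 of 2 were past the fold among members with 10 or more C1q UMIs. Class I presentation had 1 of 12 higher and 1 lower, and chemokine receptors 1 of 8 higher.

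**Figure D3:**
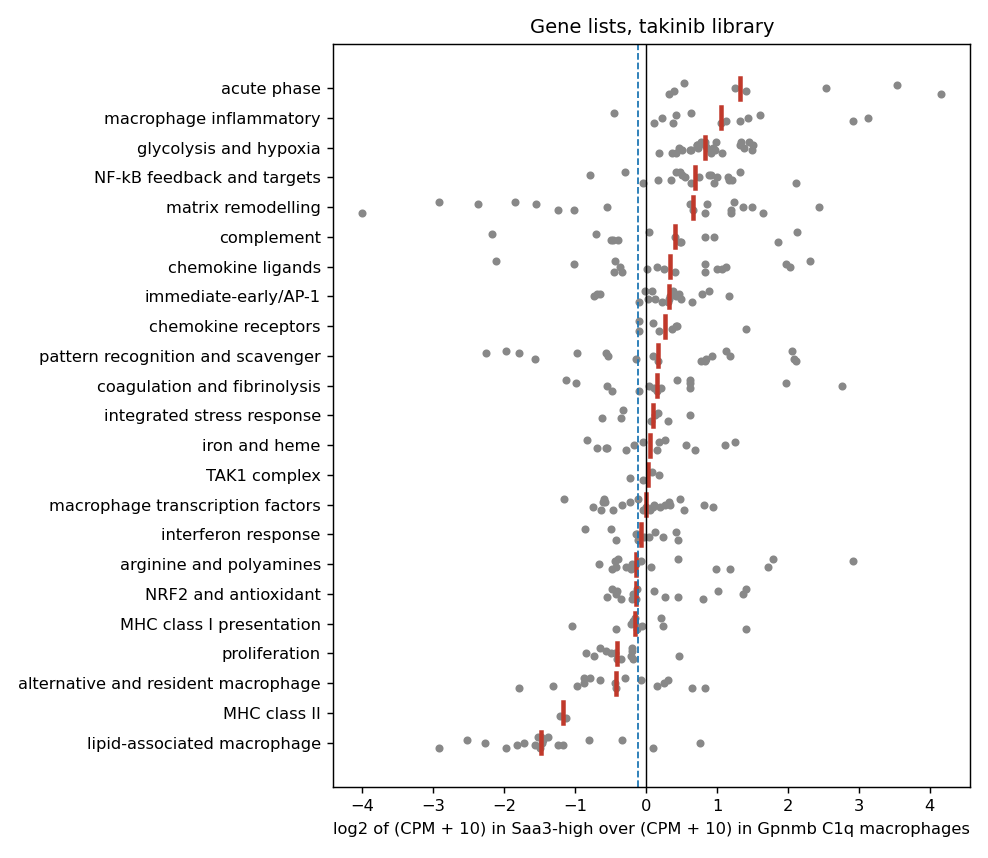
Each grey point is 1 gene's log2 ratio of CPM + 10 in Saa3-high over Gpnmb C1q macrophages of the takinib library, red bars are list medians, and the dashed blue line is the median of -0.11 over 9269 genes. Acute phase (1.33), macrophage inflammatory (1.06) and glycolysis and hypoxia (0.83) lists lie highest, and lipid-associated genes (-1.48) lowest.

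Markers of other cells were counted as well. From the monocyte list 4 of 11 genes were higher past the fold than in the reference, 0 lower, with a median of 0.79. Of these 4, neutrophils held more Ly6c2 (351 against 274 CPM) and Plac8 (491 against 204) than members. They held less Vcan (14.0 against 110 CPM) and Ccr2 (9.61 against 75.9). From the fibroblast list 4 of 7 and from the erythroid list 4 of 5 were higher, and without sub-clusters 3, 7 and 8 these counts were 0 of 5 and 0 of 4. From the neutrophil list 1 of 8 genes outside the rule was higher, and S100a8 with S100a9 came to 5792 CPM in members, 4001 in Gpnmb C1q cells, 5928 in monocytes and 147757 in neutrophils, a value that the rule limited in every gate but the last. None of the dendritic, T or NK and mast cell genes had 50 counts.

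Against 170 monocytes of the takinib library (Ly6c2 at 2 UMIs or more, Ccr2 at 1 or more), 219 of 9248 genes were higher (2.37%) and 226 lower (2.44%). Cxcl13, Saa1, Ptges and the metallothionein Mt2 were among the 5 highest. Ptges was at 278 CPM in members and 13.6 in monocytes, Nos2 at 355 and 66.1, Slc7a2 at 524 and 77.8, and Mrc1 at 235 and 62.2. The acute phase list had 6 of 8 genes higher, and the alternative and resident list 6 of 16. Of proliferation genes 10 of 13 were lower, and of monocyte markers 9 of 11 were lower, 2 of which, Ly6c2 and Ccr2, had cut the monocyte gate. Monocytes held 1029 CPM of Hp and 1125 CPM of Lcn2, against 453 and 2872 CPM in takinib B cells.

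Against 1373 alveolar-like macrophages (Ear2 and Car4 at 3 UMIs or more), 226 of 9890 genes were higher (2.29%) and 282 lower (2.85%). Cxcl13, U90926, Saa1, Hp and Ms4a4a were the 5 highest. Arg1 was at 4457 CPM in members and 1972 in alveolar-like cells, and Slc7a2 at 524 and 419, so that neither was low in that gate, while F13a1 was at 1315 and 136. Hp was at 246 CPM, Nos2 at 40.1 and Ptges at 21.5 in alveolar-like cells. Glycolysis and hypoxia genes were above 0 in 24 of 25 cases against each of these gates, with 6 past the fold against monocytes and 10 against alveolar-like cells. None of the 25 was lower past the fold in either comparison.

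Among the takinib members, cells with more Saa3 also had more Saa1, Hp and Lcn2 and less Gpnmb, Mrc1, Apoe and Ccr2. Members were split into 4 quartiles of 472 by their Saa3 share, with medians of 1.67%, 3.79%, 7.46% and 14.3%. Saa1 was at 24.4, 63.2, 155 and 633 CPM from the lowest to the highest quartile, and Hp at 1289, 1902, 3250.0 and 7419.5 CPM. Heme oxygenase (Hmox1) was at 321, 478, 654 and 1001 CPM. F13a1 was at 932 CPM in the lowest and 1646 CPM in the highest quartile, whereas Arg1 was at 3585, 4553, 5063 and 4557 CPM. Gpnmb went from 455 to 47.2 CPM, Mrc1 from 480.4 to 40.1, Ccr2 from 154 to 16.6 and Il6 from 85.7 to 15.7. Il1b and Ptgs2 were lower in the highest quartile (1144 and 116 CPM) than in the lowest (2420.4 and 259), and Ptges was the reverse (171 to 416). Saa3 itself took 156955 CPM in the highest quartile, a share of the total that the CPM of every other gene is divided by. Median depth went from 5353.5 to 6720.5 UMIs, and S100a8 with S100a9 from 6287 to 6179 CPM.

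**Figure D4:**
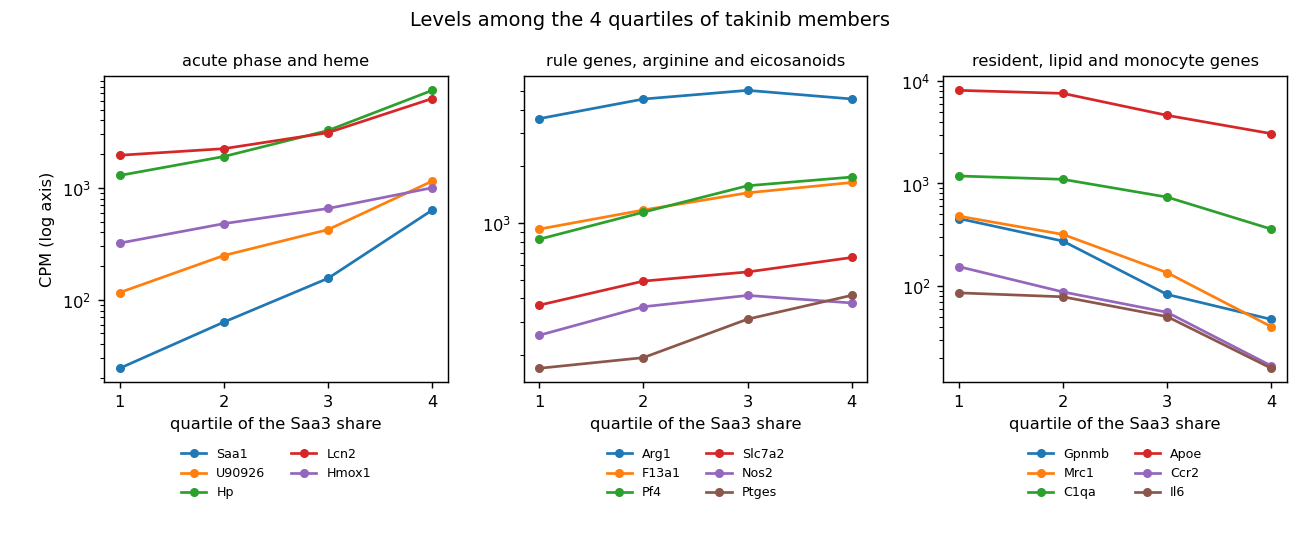
CPM (log axis) of selected genes in the 4 quartiles of takinib members ordered by their Saa3 share, 472 cells each; lines join the summed level of a gene and carry no error since each is 1 sum of counts. Saa1, U90926, Hp, Lcn2 and Hmox1 are higher from each quartile to the next, while Gpnmb, Mrc1, C1qa, Apoe, Ccr2 and Il6 are lower.

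C1q divided the members as well. Of takinib members 667 (35.3%) had 10 or more C1q UMIs and 649 (34.4%) had none. Those with 10 or more had 534 CPM of Mrc1 and 11565 of Apoe, against 17.2 and 1451 in those with none. Nos2 was at 146 and 549 CPM, Ptges at 153 and 368, and U90926 at 47.2 and 887. Arg1 had 4339 and 4561 CPM, and F13a1 1301 and 1361. The 2 sets had median depths of 6717 and 5468 UMIs. Only 146 members (7.73%) would also have met the Gpnmb and C1q limits of the reference gate.

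Leiden clustering of the takinib members gave 8 sub-clusters, whose leading genes are descriptions since the same values made the clusters. Sub-cluster 1 (511 cells) was led by U90926, Saa1, Cd72, Hp and Tmeff1 and had the highest median Saa3 share, 9.96%. Sub-cluster 2 (324 cells) was led by Vcan, Il6, S100a4, Ccr2 and Ms4a4c, of which Vcan, Ccr2 and Ms4a4c are monocyte markers; Ccr2 was at 211 CPM there and 180.4 CPM of Il6 was the highest of all 8. Sub-cluster 4 (252 cells) was led by H2-M2, Mmp12, Lpl, Atp6v0d2 and Gpnmb and thus shared genes with the reference gate, with 766 CPM of Gpnmb. Sub-cluster 5 (241 cells) was led by Ccl8, Fcna, Cxcl13, Cbr2 and Lyve1, genes known from resident tissue macrophages. It held a median of 63 C1q UMIs, 1273 CPM of Mrc1 and 2091 CPM of Cxcl13, and its Nos2 and Ptges stood at 50.4 and 25.2 CPM.

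Sub-cluster 6 (186 cells) was led by Csf3, Hspa1a, Inhba, Ccl4 and Il7r. Nos2 was at 1233 CPM, Ptges at 859, Ptgs2 at 652 and Slc7a2 at 1158, the highest values among the 8, while C1qa was at 69.3. Glycolysis and hypoxia genes summed to 24359 CPM there, against 8340.3 CPM in sub-cluster 5. Arg1 was found in 90.5% of sub-cluster 5 and 98.9% of sub-cluster 6, and F13a1 in 91.3% and 93.0%.

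The other 3 sub-clusters were led by genes of other cells. Sub-cluster 3 (322 cells) was led by G0s2, Asprv1, Stfa2l1, Chil1 and Retnlg, known from neutrophils, and held 13861 CPM of S100a8 and S100a9 against 3765 in sub-cluster 1. Sub-cluster 7 (35 cells) was led by Hist1h2ap, Alas2, Hist1h2ae, Car2 and Birc5, genes of dividing and red blood cells. Sub-cluster 8 (17 cells) was led by Mgp, Col3a1, Sparc, Timp3 and Col1a1, genes of fibroblasts, at a median depth of 14956 UMIs. The doublet caller Scrublet marked 80 of 322, 7 of 35 and 9 of 17 cells of these, and at most 5 cells of any other sub-cluster. Without these 374 cells, a choice made after the data were seen, 143 genes were higher and 186 lower than in the reference gate, of which 138 and 150 were shared with the counts over all members.

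**Figure D5:**
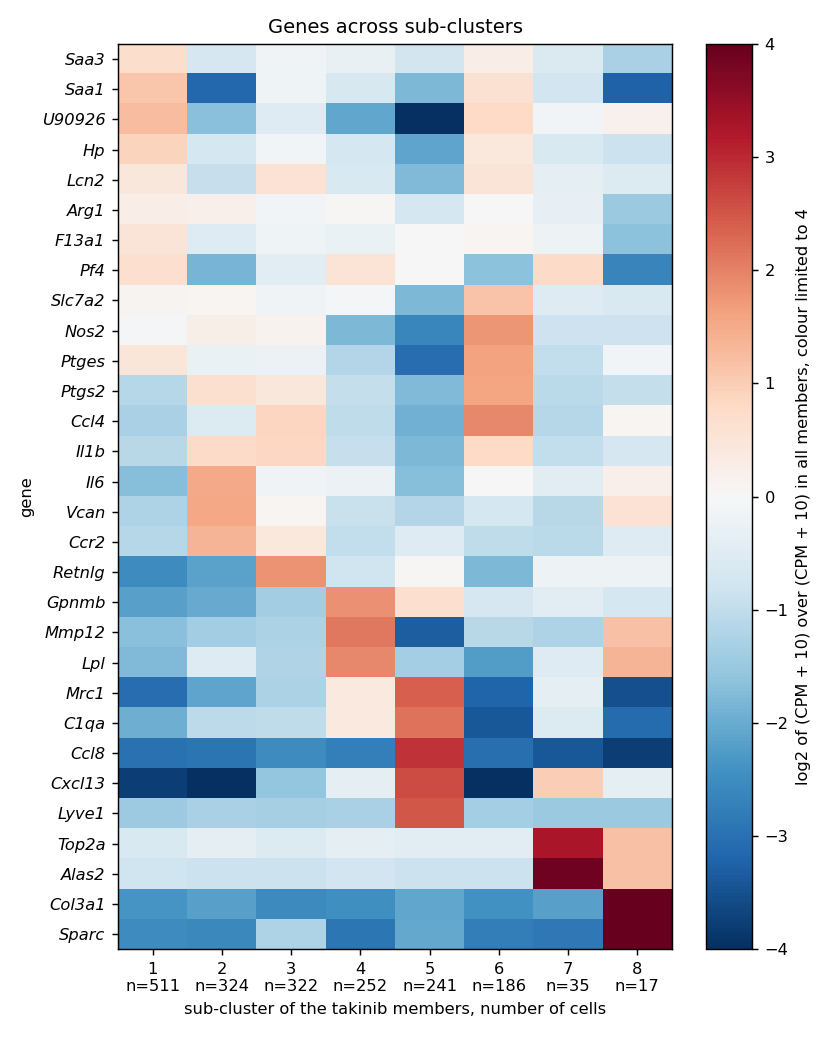
Log2 of CPM + 10 in each of 8 sub-clusters of takinib members over CPM + 10 in all members, red higher and blue lower, with colours limited at 4 in either direction. Saa1, U90926 and Hp are highest in sub-cluster 1, Nos2, Ptges and Ptgs2 in sub-cluster 6, Mrc1, C1qa, Ccl8 and Cxcl13 in sub-cluster 5, and Col3a1 and Sparc in the 17 cells of sub-cluster 8.

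The 37 vehicle members held 130713 UMIs in all and differed from the takinib members in more than their number. C1q was nearly universal, with 32 of 37 (86.5%) at 10 or more UMIs and 0 of 37 without any. C1qa was at 2716 CPM against 828 in takinib members, and Apoe at 16456 against 5742. Arg1 was at 4407 [4054, 4782] and 4457 CPM and Slc7a2 at 520.2 [404, 659.5] and 524 CPM, levels within the counting interval of the vehicle cells, and F13a1 at 956 [796, 1139] and 1315 CPM. Several acute phase and inflammatory genes were lower in the vehicle cells, but the acute phase gene Lrg1 was higher, at 551 against 245 CPM. Hp was at 237 against 3585 CPM, Nos2 at 7.65 (1 count) against 355, Il1b at 15.3 (2 counts) against 1862, and Ptges at 7.65 (1 count) against 278. Lcn2 had 0 counts in vehicle members, which allows up to 3 counts in 130713 UMIs, against 3476 CPM in takinib members and 2872 CPM in takinib B cells. Of 9246 genes with 50 counts or more in either set, 50.5% had the higher CPM in vehicle members, and so had 9 of 11 genes of the peritoneal macrophage list, 11 of 16 of the alternative and resident list, 2 of 8 of the acute phase list and 2 of 13 of the inflammatory list. From the first of these and the second, Alox15 was at 383 against 13.1 CPM, Prg4 at 191 against 52.8, Selp at 130.1 against 12.4 and Lyve1 at 207 against 18.2. Of these, Lyve1 reached 148 CPM and Alox15 70.8 CPM in takinib sub-cluster 5.

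Within the vehicle library the members were set against 46 Gpnmb C1q macrophages. Xist was found in 0 of 37 members and 10 of these 46 cells, and Y-linked UMIs in 6 and 24, and whether both gates hold cells of the same animals cannot be told. Of 685 genes with enough counts, 18 were higher (2.63%) and 40 lower (5.84%). Of 570 genes counted in both libraries and outside the rules, 23 were higher past the fold in takinib, and in vehicle 2 of them were higher past the fold and 6 lower. Of 47 lower in takinib, 12 were lower in vehicle and 0 higher. Fabp5 was at 451 CPM in vehicle members and 1501 in vehicle Gpnmb C1q cells, and Spp1 at 1997 and 1730.1. At 37 and 46 cells most single genes had too few counts for a direction to be read.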

How the data were processed

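The deposited values are unnormalized UMI counts. The authors produced them with Cell Ranger 4 (vehicle) and 6.1.1 (takinib), per the file headers; the submitters' processing notes also list Cell Ranger 2.1.1, bcl2fastq, STAR 2.0.4b, Subread, featureCounts 1.45 and mm10. The vehicle matrix held 704261 barcodes and 80850334 UMIs, the takinib matrix 34158 and 139292875. Members and gene lists were chosen with earlier results of these data known. Gates were cut on UMIs as described, counts were summed over each gate and scaled to CPM, and 10 CPM was added before log2. The genes named are the 15 highest and 15 lowest against Gpnmb C1q cells and the 5 highest against monocytes and alveolar-like cells, without rule genes, mitochondrial, ribosomal, haemoglobin, immunoglobulin, Xist and Y-linked genes and Gm or Rik models, the 5 leading genes of each sub-cluster, and list members. Sub-clusters came from scanpy 1.11.5 (seed 1). Doublets were not removed; Scrublet was an alternative, marking 1 vehicle and 110 takinib members, the latter by its highest 6% of scores because its own threshold marked 0.00373% of barcodes. The rule for genes past the fold was tested on simulated sums with counting error alone. That simulation had no spread between cells, so it cannot cover transcripts held by few cells. Genes that overlap or share sequence with others may be miscounted. A result that these rules select but that is withheld is not reported here.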

Additional observations from a re-analysis of the deposited data

Results flagged for a closer look

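Outside the gate, 25.6% of kept takinib barcodes had Saa3 at 1% of UMIs or more, against 0.466% of kept vehicle barcodes. Some of them belong to gates set beside the members, as 34.4% of takinib neutrophils and 8.31% of takinib B cells reached that share. Their part in the free RNA of the takinib library was not tested.

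For 6 genes the members and the Gpnmb C1q macrophages stood in opposite order in the 2 libraries, each past the fold in both; the difference between libraries was not tested. Complement C3 had a log2 ratio of 1.87 in takinib and -1.26 in vehicle, where members had 23 counts (176 CPM) and the reference 114. AA467197 had 1.32 in takinib and -1.03 in vehicle, with 12 and 52 counts. The fibroblast gene Col3a1 was at 86.1 CPM in members and 24.0 CPM in the reference in takinib. Col1a1, Col1a2 and Dcn had ratios of 1.08, 1.14 and 1.07 there, and in vehicle the 4 genes, Col3a1 first, had -4.51, -3.30, -2.41 and -4.84. Without sub-clusters 3, 7 and 8 the takinib ratio was -0.79 for Col3a1 and -0.32 for Dcn, and 1.78 for C3.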

How the results depend on the processing

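All 30 named genes kept their direction in all 510 values under 17 alternatives, 508 of them past the fold. The takinib share of members was 8.04%, 5.82%, 6.70%, 12.2% and 5.71% with Saa3 at 0.5%, Saa3 at 2%, 5 UMIs of F13a1, Pf4 and Arg1, 2000 UMIs with 1000 genes, and S100a8 with S100a9 under 1%. The vehicle share was 0.709% and 0.122% with Saa3 at 0.5% and 2%. Genes higher and lower than in Gpnmb C1q cells numbered 350 and 394 with 1 CPM added, 65 and 55 with 50 CPM added, and, chosen after seeing the data, 92 and 91 with members of 10 or more C1q UMIs. With the reference gate cut on Gpnmb, C1q and Saa3 alone, it held 1108 barcodes in place of 477. The counts were then 154 and 209, of which 135 and 111 were shared with the main 166 and 169. Scaling to a median of 0 adds the same amount to every ratio, and gave 210 and 132 (61.4% higher, against 49.6%). Thinning to 1000 UMIs left 4279 genes counted in place of 9269, with 208 higher and 119 lower (63.6%). What shifted the balance under thinning was not tested. No paired analysis was possible because each group is 1 library. Each library's free RNA, the number of animals and the 37 vehicle members limit what can be read: single vehicle genes rest on few counts, and intervals leave out variation between animals.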

Other observations

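Genes of iron, heme and oxidant defence added few calls beyond the groups above. Heme oxygenase Hmox1, which opens the heme ring, stood at 627 CPM in takinib members and 283 CPM in Gpnmb C1q cells, a log2 ratio of 1.12 [1.03, 1.21]. The cystine carrier Slc7a11 was at 370.3 against 133 CPM (1.41 [1.28, 1.54]), and the peroxiredoxins Prdx5 and Prdx6 had 1.37 and 1.01. Among members with 10 or more C1q UMIs these ratios were 0.74, 0.96 and 0.56, none past the fold. From the immediate-early list the gene past the fold was Ier3 (1.17), and from the transcription factors Bhlhe41 (-1.16), lower. Ier3 was not past it among members with 10 or more C1q UMIs (0.92) or without sub-clusters 3, 7 and 8 (0.99). The class II chaperone genes H2-DMa and H2-DMb1 had -1.13 and -1.22, and -0.58 and -0.70 among members with 10 or more C1q UMIs. The class II genes of the rule were limited by it.

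Of 15 genes listed for peritoneal macrophages 11 had enough counts, and Cxcl13 and Prg4 (52.8 against 4.65 CPM) were higher past the fold.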
